A study of Mus musculus with 30 samples.

Results

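The melanocyte lineage regulators followed here were 8 genes, chosen by name: the transcription factors Mitf, Sox10 and Pax3, the receptor and ligand pairs Ednrb with Edn3 and Kit with Kitl, and the melanocortin receptor Mc1r. All 8 were found by their symbol alone among the 19938 genes that the array annotation names in that way. RNA was taken from the single ground sclera of each of 30 Balb/cJ mice, with 6 mice at each of weeks 1, 2, 3, 6 and 8 after birth, and each RNA was hybridised to 1 Mouse Gene 1.0 ST array, which measures whole-transcript signal per transcript cluster. No treatment was given, the mice came from 1 family per the study's methods, and their sex is not stated. Balb/cJ is an albino strain, so its melanocytes carry the cell lineage without making melanin. The comparison asked how the signal of each gene differed between ages during postnatal growth of the eye coat.

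Melanocytes descend from the neural crest and lie in the choroid and the outer coats of the eye. Pax3 and Sox10 act upstream of Mitf, the basic helix-loop-helix leucine zipper factor that switches on the pigment genes. Endothelin 3, encoded by Edn3, signals through the receptor Ednrb, and stem cell factor, encoded by Kitl, signals through the receptor tyrosine kinase Kit, and both pathways support the growth and spread of melanoblasts. Mc1r answers melanocyte stimulating hormone and raises cyclic AMP, which acts on the Mitf promoter. None of these genes belongs to melanocytes alone. Mitf also acts in the retinal pigment epithelium and in mast cells, Sox10 in Schwann cells, Pax3 in muscle progenitors, Ednrb in glia and endothelium, and Kit in mast cells.

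Mitf has several start sites, and its melanocyte form starts at the most downstream promoter, whereas the pigment epithelium uses starts further upstream. RefSeq (GRCm38.p6) lists promoters for 6 of the 8 genes, and Sox10 and Pax3 are named only. The table has 3 starts of Mitf, which lies on the forward strand of chromosome 6 at 97807002 to 98021360. The 250 bases before the second and the third start are shown because the array signal of Mitf cannot be assigned to a start, since probe positions were not used here. They read 5′ to 3′ at chr6:97929567-97929816 and chr6:97991533-97991782.
Mitf start 2: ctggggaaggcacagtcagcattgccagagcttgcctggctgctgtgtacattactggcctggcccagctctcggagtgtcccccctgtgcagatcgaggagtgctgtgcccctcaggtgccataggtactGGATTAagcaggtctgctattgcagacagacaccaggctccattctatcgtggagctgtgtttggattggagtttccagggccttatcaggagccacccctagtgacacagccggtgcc
Mitf start 3: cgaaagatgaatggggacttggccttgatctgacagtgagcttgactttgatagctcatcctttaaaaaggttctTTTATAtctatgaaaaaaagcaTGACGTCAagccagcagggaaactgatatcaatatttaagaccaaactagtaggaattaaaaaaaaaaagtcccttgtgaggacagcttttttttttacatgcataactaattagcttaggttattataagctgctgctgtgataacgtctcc
Capitals mark matches to motifs searched on both strands. The window of start 3 holds TGACGTCA, the full cyclic AMP response element, 153 to 146 bases before the start. That motif was present in 1.55% of the 32851 windows of the same length. The same window holds TTTATA, the reverse complement of the TATA box letters TATAAA, which 12.4% of windows had on either strand. The window of start 2 holds GGATTA, the reverse complement of the OTX and CRX core TAATCC, which 6.25% of windows had on either strand. The other motifs searched were the E-boxes CATGTG, in 12.3% of windows, and CACGTG, in 6.02%, and the SOX cores AACAAT, in 9.42%, and ACAAAG, in 16.5%. Among the other genes, Mc1r had 2 matches to CATGTG, Ednrb had 1 to TAATCC and Kitl had 1 to TATAAA, and Kit and Edn3 had none of the 7 motifs. A match is a description of letters and not a binding site.

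Signals are log2 values as deposited, so a difference of 1 is a doubling, and levels are compared within a gene and not between genes. The median log2 signal of an array was between 6.15 and 6.37. On week 2 replicate 4 each of the 8 genes equalled its week 2 mean to within rounding (Mitf 6.474, Ednrb 6.397). That array adds no spread of its own. The SDs, SEs and p-values count 6 free arrays per week, with nothing taken off for batch, and may be too small. The interquartile range of the arrays differed by age, with means of 2.70, 2.36, 2.75, 2.44 and 2.53 in weeks 1, 2, 3, 6 and 8, and 71.2% of its variance lay between weeks. Week 8 replicate 6 and week 2 replicate 2 had the lowest Mitf and Ednrb signals of their weeks, and week 8 replicate 2 had a Kit signal far below the other 5 arrays of its week. Values without these arrays stand beside the main comparisons of these genes. In a ground tissue, fewer cells of a type and less RNA per cell cannot be told apart. The genes of the scleral matrix, a list of 8 collagen and proteoglycan genes, had a mean log2 signal between 9.14 and 11.5 on every array, and this list was lower in week 2 than in weeks 1 and 3, with its counts given beside those of the other cell types.

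Of the 8 genes, 7 differed among the 5 weeks by the moderated F test of limma at an adjusted p of at most 0.05, as did 92.9% of all genes with 1 symbol. Kitl was the exception (adjusted p = 0.0683). The span between the highest and the lowest week mean was 2.84 for Ednrb, 2.41 for Mitf and 1.94 for Edn3 on the log2 scale. These spans exceeded those of 99.2%, 98.5% and 96.8% of genes. Kit spanned 1.01 and Sox10 spanned 0.73, while Pax3, Kitl and Mc1r spanned 0.59, 0.51 and 0.51, under the median of 0.62 over all genes.

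**Figure D1:**
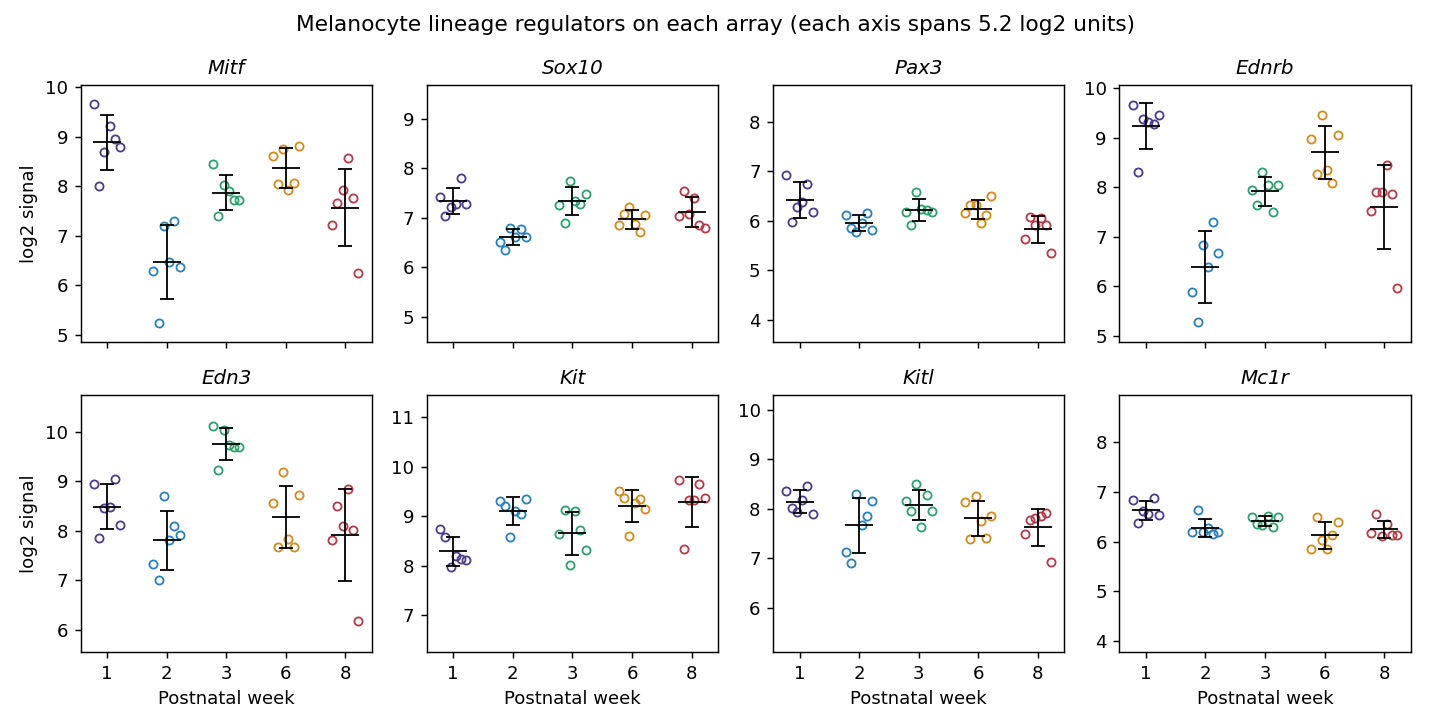
The log2 signal of each gene on each of the 30 arrays by postnatal week, with 1 open circle per mouse, the week mean as a horizontal bar and the SD as error bars (n = 6 per week). Mitf and Ednrb were lowest in week 2 (means 6.47 and 6.40), Edn3 was highest in week 3 (mean 9.74), and Sox10, Pax3, Kitl and Mc1r varied within a narrower range.

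Mitf, the central factor of the lineage, had its highest mean in week 1 and its lowest in week 2. Its lowest, median and highest log2 signals were 8.01, 8.88 and 9.66 in week 1, 5.24, 6.42 and 7.30 in week 2, and 7.40, 7.81 and 8.45 in week 3. They were 7.92, 8.33 and 8.82 in week 6 and 6.26, 7.71 and 8.58 in week 8. The arrays of week 2 lay below every array of weeks 1, 3 and 6, and the arrays of week 8 overlapped those of each other week. In week 2, Mitf averaged 6.47 ± 0.75, against 8.89 ± 0.55 in week 1 (SD, n = 6 each), a log2 fold change of -2.41 (SE 0.32, limma adjusted p = 3.21e-07) or 5.33-fold lower. In week 3 it was 2.63-fold above week 2 (log2 fold change 1.39, SE 0.32, limma adjusted p = 0.000869). Without week 2 replicate 2 these differences were -2.17 and 1.15. From the highest to the lowest mean the weeks ran 1, 6, 3, 8 and 2, and the neighbours 6 and 1 (-0.52, 95% interval -1.18 to 0.14), 6 and 3 (0.50, -0.16 to 1.16) and 8 and 3 (-0.30, -0.96 to 0.36) were not separated at the threshold, whereas weeks 8 and 2 were (1.09, limma adjusted p = 0.0109). Without week 2 replicate 2 or week 8 replicate 4 that difference was under the 2-fold limit (0.85, limma adjusted p = 0.0417, and 0.89, limma adjusted p = 0.039), and without week 8 replicate 6 it was 1.36.

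A second, dimmer transcript cluster carries the symbol Mitf alone. Its week means were 4.89, 2.85, 3.86, 4.17 and 3.30 in weeks 1, 2, 3, 6 and 8, which puts the weeks in the same order, but weeks 8 and 2 were not separated in it (0.45, limma adjusted p = 0.225). The means of this cluster lay below the lowest array median, 6.15, and its SD in week 2 was 0.23. So low a signal limits its use as a check on the brighter cluster. It fell by 2.04 in week 2 against week 1 (limma adjusted p = 3.79e-07) and was higher by 1.01 in week 3 against week 2 (limma adjusted p = 0.00365). In week 8 against week 6 it passed the threshold with -0.87 (limma adjusted p = 0.014), where the brighter cluster had -0.80 and a limma adjusted p of 0.0514, which was under 0.05 in 8 of the 30 fits that left out 1 array. Without week 8 replicate 6 the brighter cluster had -0.54 (limma adjusted p = 0.177).

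Sox10, which acts with Pax3 on the Mitf promoter and marks neural crest glia as well, had a smaller swing with the same first steps. Its lowest, median and highest signals were 7.05, 7.29 and 7.81 in week 1, 6.36, 6.61 and 6.79 in week 2, and 6.90, 7.31 and 7.75 in week 3. The arrays of week 2 did not overlap those of week 1 or week 3. Sox10 fell by 0.73 in week 2 against week 1 (SE 0.14, limma adjusted p = 3.79e-05), a 1.66-fold change, and rose by 0.72 in week 3 against week 2 (SE 0.14, limma adjusted p = 0.000117). It averaged 6.97 ± 0.19 in week 6, against 7.34 ± 0.28 in week 3 (SD, n = 6 each; limma adjusted p = 0.0244), and this difference did not pass without week 3 replicate 3 or 6 or week 6 replicate 5 (-0.29 to -0.34). Nor did this difference pass with quantile normalization (-0.31, limma adjusted p = 0.0578). Week 8 against week 6 gave 0.15 (95% interval -0.13 to 0.43).

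Pax3, a paired box factor of the neural crest, had means of 6.42, 5.95, 6.22, 6.23 and 5.83 in weeks 1, 2, 3, 6 and 8, and its arrays of any 2 successive weeks overlapped. It fell in week 2 against week 1 (log2 fold change -0.47, limma adjusted p = 0.00441) and in week 8 against week 6 (-0.40, limma adjusted p = 0.0253). The second of these did not pass without week 6 replicate 6, week 8 replicate 1 or week 8 replicate 6 (-0.35, -0.37 and -0.31). Nor did it pass with median centring (-0.32, limma adjusted p = 0.0666) or quantile normalization (-0.33, limma adjusted p = 0.0507).

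Ednrb, the receptor for endothelin 3, followed the same course as Mitf with a wider swing. Its lowest, median and highest log2 signals were 8.32, 9.35 and 9.66 in week 1, 5.28, 6.53 and 7.31 in week 2, and 7.50, 7.99 and 8.32 in week 3. They were 8.09, 8.67 and 9.46 in week 6 and 5.96, 7.88 and 8.44 in week 8. The arrays of week 2 lay below every array of weeks 1, 3 and 6 and overlapped those of week 8. Ednrb averaged 6.40 ± 0.72 in week 2, against 9.24 ± 0.47 in week 1 (SD, n = 6 each), which is 7.15-fold lower (log2 fold change -2.84, SE 0.33, limma adjusted p = 4.22e-08). It was 2.87-fold higher in week 3 than in week 2 (1.52, SE 0.33, limma adjusted p = 0.00049) and 1.73-fold higher in week 6 than in week 3 (0.79, limma adjusted p = 0.044). The last of these did not pass in 8 of the 30 fits that left out 1 array, those without week 3 replicate 1, 2, 4, 5 or 6 or week 6 replicate 1, 3 or 6 (0.64 to 0.81). Nor did it pass with median centring of the arrays (0.70, limma adjusted p = 0.0743). Without week 2 replicate 2 the first 2 differences were -2.62 and 1.30. Ednrb was lower again in week 8 than in week 6, by 2.15-fold (log2 fold change -1.10, SE 0.33, limma adjusted p = 0.00959). That difference was under the 2-fold limit without week 8 replicate 6 (-0.78, limma adjusted p = 0.0376) or without week 6 replicate 3 (-0.95, limma adjusted p = 0.0297).

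Edn3, the ligand of Ednrb, had a different course with its peak in week 3. Its lowest, median and highest log2 signals were 7.86, 8.47 and 9.04 in week 1, 7.01, 7.85 and 8.69 in week 2, and 9.22, 9.71 and 10.12 in week 3. They were 7.68, 8.19 and 9.18 in week 6 and 6.17, 8.05 and 8.85 in week 8. All 6 arrays of week 3 lay above all arrays of the other weeks. Edn3 averaged 9.74 ± 0.32 in week 3, against 7.80 ± 0.59 in week 2 (SD, n = 6 each), 3.84-fold higher (log2 fold change 1.94, SE 0.34, limma adjusted p = 4.15e-05). In week 6 it averaged 8.27 ± 0.63 (SD, n = 6), 2.78-fold below week 3 (-1.47, SE 0.34, limma adjusted p = 0.000541). Week 2 against week 1 gave -0.68 (95% interval -1.37 to 0.01, limma adjusted p = 0.0743), which was -0.52 without week 2 replicate 2 (limma adjusted p = 0.187). This difference passed the threshold without week 1 replicate 2 (limma adjusted p = 0.0437), week 2 replicate 3 (0.0291) or week 8 replicate 6 (0.029). It also passed with array quality weights (limma adjusted p = 0.00939) and when only the weeks compared were fitted (0.0399). Week 8 against week 2 gave 0.10 (95% interval -0.59 to 0.79), and 0.45 without week 8 replicate 6 or -0.06 without week 2 replicate 2. Without week 2 replicate 2, the rise in week 3 was 1.78.

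Kit, the receptor for stem cell factor, was the 1 gene of the 8 with a higher mean in week 2 than in week 1. Its lowest, median and highest log2 signals were 7.97, 8.16 and 8.74 in week 1, 8.58, 9.15 and 9.35 in week 2, and 8.01, 8.68 and 9.12 in week 3. They were 8.59, 9.31 and 9.50 in week 6 and 8.33, 9.35 and 9.73 in week 8. The arrays of successive weeks overlapped in every case. Kit was 1.75-fold higher in week 2 than in week 1 (log2 fold change 0.81, SE 0.21, limma adjusted p = 0.0012) and higher in week 6 than in week 3 (0.55, limma adjusted p = 0.0251). Week 8 against week 1 was 2.01-fold higher (1.01, SE 0.21, limma adjusted p = 0.000247), just inside the 2-fold limit. It was under that limit in 9 of the 30 fits that left out 1 array, those without week 1 replicate 3, 4, 5 or 6 or week 8 replicate 1, 3, 4, 5 or 6 (0.917 to 0.998, each with an adjusted p under 0.05), and 1.20 without week 8 replicate 2. The difference between weeks 6 and 3 did not pass without week 3 replicate 3 or 6 or week 6 replicate 1 (0.42 to 0.49). Nor did it pass with median centring (0.47, limma adjusted p = 0.0739).

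Kitl, the ligand of Kit, had week means of 8.14, 7.67, 8.08, 7.81 and 7.63. Its difference in week 2 against week 1 passed the threshold narrowly (-0.47, SE 0.21, limma adjusted p = 0.0464). It did not pass in 11 of the 30 fits that left out 1 array, for example without week 2 replicate 2 (-0.32, limma adjusted p = 0.164). Nor did it pass with quantile normalization (-0.27, limma adjusted p = 0.248). No other successive comparison of Kitl passed. Mc1r, the receptor through which melanocyte stimulating hormone acts, had week means of 6.63, 6.28, 6.42, 6.12 and 6.24. It fell in week 2 against week 1 (-0.36, SE 0.11, limma adjusted p = 0.00645) and in week 6 against week 3 (-0.30, limma adjusted p = 0.0274), by 1.28-fold and 1.23-fold. The second of these did not pass without week 3 replicate 1, 4 or 6 or week 6 replicate 1, 3 or 4 (-0.24 to -0.28).

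Between successive ages, 2 of the 8 genes were called in week 2 against week 1 (2-fold or more at an adjusted p of at most 0.05), both lower, where 10.7% of all genes were called, 3.52% higher and 7.16% lower. In week 3 against week 2, 3 of the 8 were called, all higher, where 3.10% of all genes were called, 2.89% higher and 0.211% lower. Week 6 against week 3 gave 1 called, lower, where 4.97% of all genes were called, 1.94% higher and 3.03% lower. Week 8 against week 6 gave 1 called, lower, where 1.37% of all genes were called, 0.231% higher and 1.14% lower. Over the whole period, week 8 against week 1 had 3 called, with Kit higher and Mitf (-1.32) and Ednrb (-1.63) lower (-1.06 and -1.31 without week 8 replicate 6), where 7.98% of all genes were called, 3.21% higher and 4.76% lower.

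At the adjusted p alone, 7 of the 8 genes passed in week 2 against week 1, 1 higher and 6 lower, but 72.0% of all genes passed too, 38.1% higher and 33.9% lower. In week 3 against week 2, 4 genes passed, all higher, as did 28.9% of all genes in that direction. The same 4, Mitf, Sox10, Ednrb and Edn3, did not overlap between those ages, a pattern that 16.8% of all genes had in that direction. In week 2 against week 1, Mitf, Sox10 and Ednrb did not overlap, all lower, where 17.7% of all genes were lower without overlap. The median log2 fold change of the 8 genes was -0.58 in week 2 against week 1, where that of all genes was 0.05, and 0.57 in week 3 against week 2, where that of all genes was 0.01.

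With the interquartile range of each array added as a covariate, none of the 3 calls in week 3 against week 2 remained. Calls over all transcript clusters went from 1560 to 350 in that comparison. Mitf then had a log2 fold change of 0.62 (limma adjusted p = 0.502), Ednrb of 0.57 (0.546) and Edn3 of 1.38 (0.129), and the SE was 1.59 times as large. In week 6 against week 3 that covariate took Edn3 out of the calls (-1.03, limma adjusted p = 0.0834) and brought in Mitf (1.11) and Ednrb (1.54). Calls over all transcript clusters there went from 2696 to 3421. In week 2 against week 1 the covariate brought in Kit (1.12, limma adjusted p = 0.00694), while all calls went from 4107 to 2869. In week 8 against week 1 the covariate took Mitf under the 2-fold limit (-0.98, limma adjusted p = 0.0346).

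**Figure D2:**
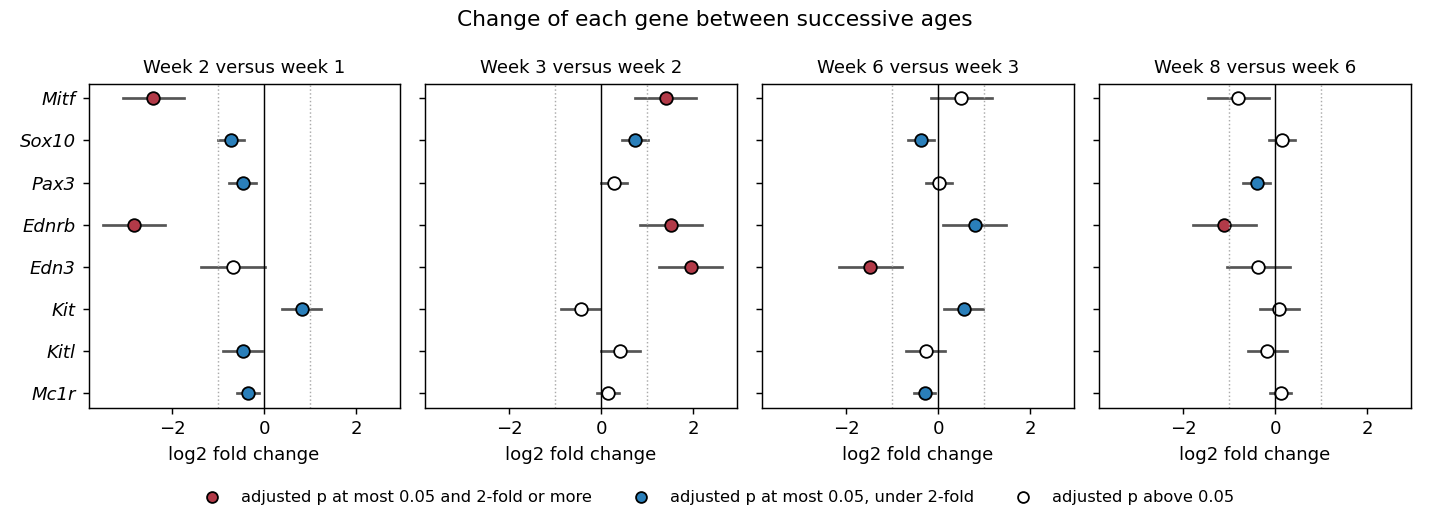
Log2 fold change of each gene between successive ages, the later over the earlier week, with its 95% interval from the limma fit over 30 arrays. Red points were called, blue points passed the adjusted p alone, and white points did not pass. Ednrb moved by -2.84 and then by 1.52, Mitf by -2.41 and then by 1.39, and Edn3 by 1.94 and then by -1.47.

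The genes with the signal course closest to that of Mitf over the 30 arrays were Tyrp1, an enzyme of melanin synthesis (Pearson's r = 0.98), Slc24a5, a cation exchanger of the melanosome (0.97), and Ednrb (0.97). The r over arrays includes the course over the weeks, so it was also taken on deviations from the week means. On those, Tyrp1 (0.94), Slc24a5 (0.94) and Oca2, a transporter of the melanosome (0.94), came first. All such r are descriptions over 30 arrays, and the genes share the array, its RNA and its normalization. For Ednrb the closest were Tyrp1 (0.97), Mitf (0.97) and Sytl2 (0.96), and within weeks S100b, a calcium-binding protein of glia and melanocytes (0.94), Sytl2 (0.93) and Rasgrp3 (0.92). Mitf and Ednrb had an r of 0.90 within weeks. Edn3 had an r of 0.54 with Mitf over the arrays and of 0.88 within weeks, and 0.49 and 0.89 with Ednrb.

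**Figure D3:**
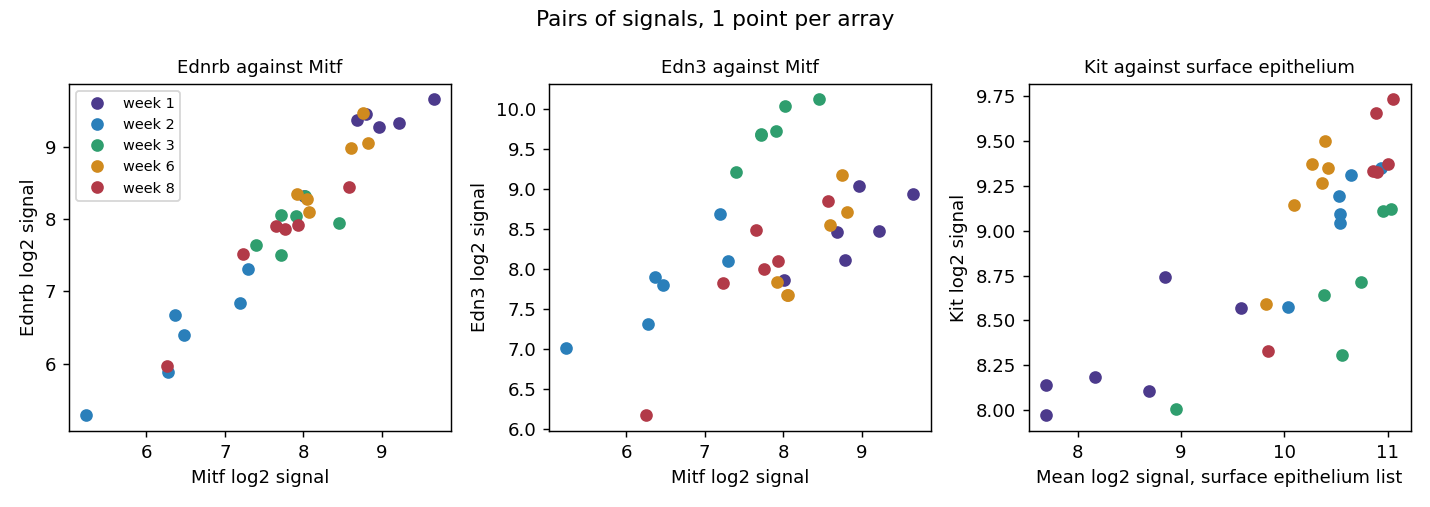
Log2 signals of 2 genes, or of Kit and the mean of the surface epithelium list, with 1 point per array coloured by week. Ednrb and Mitf lie along 1 line (r = 0.97), the 6 arrays of week 3 lie above all others in Edn3, and the 2 arrays with the lowest surface epithelium means have Kit signals of 7.97 and 8.14.

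The genes nearest to Kit were of another kind. Over the 30 arrays they were Cpd, a carboxypeptidase (0.96), Cd44, the hyaluronan receptor (0.95), and Kif23, a kinesin of cell division (0.95), and within weeks Prkci, an atypical protein kinase C of epithelial polarity (0.97), Alcam, an adhesion molecule (0.96), and Cpne3 (0.95). Its r with each of the other 7 genes was below 0, between -0.43 with Mitf and -0.65 with Sox10, and with its own ligand Kitl it was -0.55. Its median r with the 12 genes of surface epithelium, such as keratins and desmosomal cadherins, was 0.79 over the arrays and 0.80 within weeks. With the 9 mast cell genes it was -0.41 and -0.34. The mast cell list had week means of 5.58 to 5.85, under the lowest array median of 6.15, so its r says little. A mast cell part in the Kit signal was not tested.

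The ligands had a higher median r with the endothelium list of 10 vessel genes than with the other cell type lists. Kitl was closest to Nrp1, a co-receptor of vessel growth factors (0.93), Gimap4 (0.93) and Adgrl4, an endothelial adhesion receptor (0.92), and within weeks to Clic4 (0.95), Gimap4 (0.94) and Nrp1 (0.91). Edn3 was closest to Timp3, an inhibitor of matrix proteases (0.96), Actn1, an actin crosslinker (0.95), and Mertk (0.95), and within weeks to Timp3 (0.95), Igfbp7 (0.95) and Nrp2 (0.95). The median r with the endothelium list was 0.71 for Kitl and 0.77 for Edn3, and within weeks 0.85 and 0.86. Within weeks the median r with the melanosome list was 0.65 for Kitl and 0.84 for Edn3, the latter close to its value with endothelium. Mitf and Ednrb had medians of 0.68 and 0.75 with the endothelium list within weeks, so this likeness was not particular to the ligands. The r between Edn3 and Kitl was 0.75.

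Sox10 was closest to Gab2 (0.90), Mras (0.89) and Pmepa1 (0.88), and within weeks to Dnah8 (0.85), Psen2 (0.85) and Trp53i11 (0.84). Its median r with the 10 measured Schwann cell genes was 0.31 over the arrays and 0.29 within weeks. Over the arrays its median r was 0.72 with the melanosome list and 0.69 with the scleral matrix list, and within weeks it was 0.69 with the endothelium list, 0.61 with the melanosome list and 0.57 with the scleral matrix list. Pax3 was closest to Tfpi (0.83), Wdr86 (0.82) and Mcoln3 (0.82), and within weeks to Bmyc (0.81), Pianp (0.81) and Rapgef3 (0.80). Its median r with the 5 muscle progenitor genes, a list with week means of 5.51 to 6.01, under every array median, was 0.11 over the arrays and 0.04 within weeks. With the melanosome list it was 0.70 and 0.55, and with the retinal pigment epithelium list 0.61 and 0.43. The nearest genes of Mc1r had lower r: Kcnmb4 (0.80), Stox1 (0.76) and Ncald (0.76), and within weeks 4932438H23Rik (0.79), Il12rb1 (0.79) and Jhy (0.79).

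**Figure D4:**
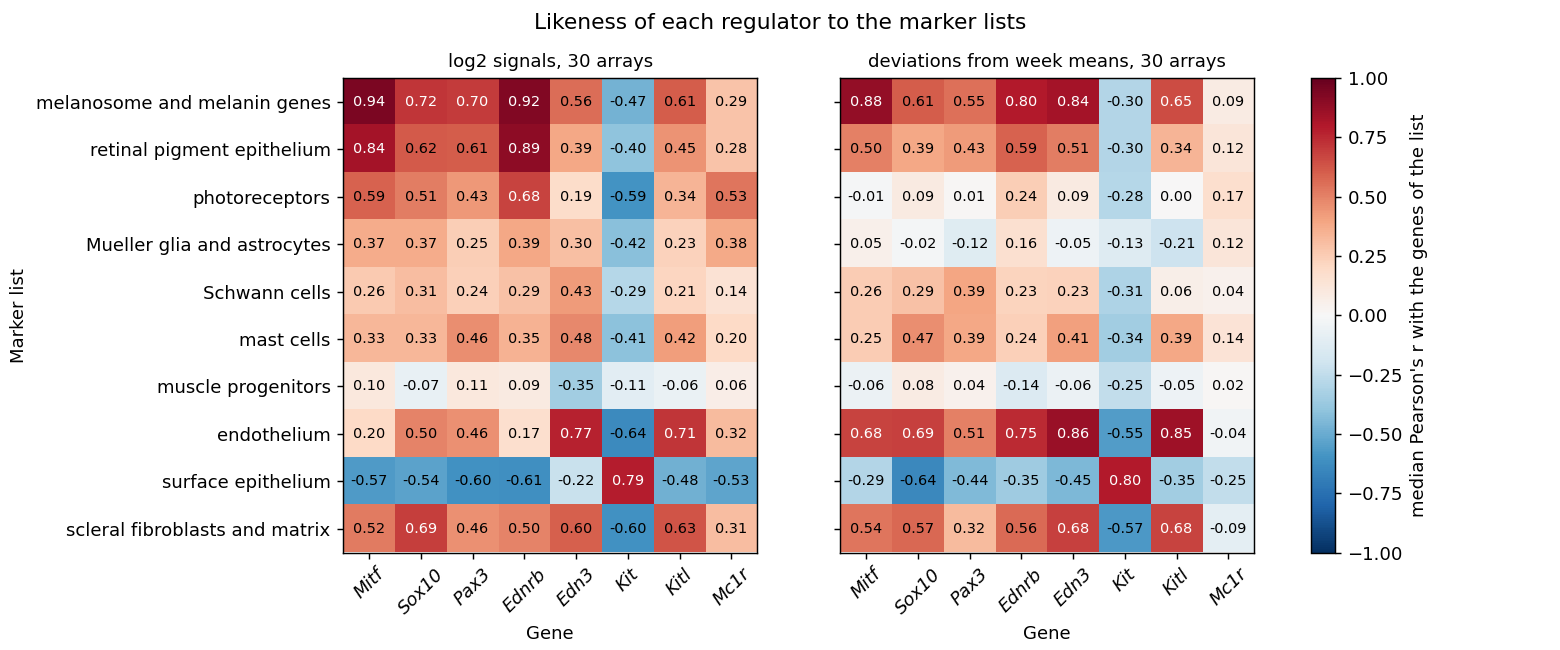
Median Pearson's r between each gene (columns) and the genes of each marker list (rows), on the log2 signals (left) and on deviations from the week means (right), each over 30 arrays. Mitf and Ednrb are highest with the melanosome list (0.94 and 0.92), Edn3 and Kitl within weeks with the endothelium list (0.86 and 0.85), and Kit with the surface epithelium list (0.79 and 0.80).

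Genes of melanosomes and melanin synthesis, several of them known Mitf targets, were counted in the same comparisons. Of the 15 melanosome and melanin genes, 13 were called lower in week 2 against week 1, led by Tyr, the first enzyme of melanin synthesis (log2 fold change -3.89), Pmel, the melanosome fibril protein (-3.61), Tyrp1 (-3.60) and Slc24a5 (-3.27). In week 3 against week 2, 14 were called higher, led by Gpnmb (2.49), Pmel (2.43), Tyrp1 (2.40) and Slc24a5 (2.31). Week 6 against week 3 gave 2 called higher, Myo5a (1.16) and Dct (1.04), and week 8 against week 6 gave 6 called lower, led by Tyr (-1.66). The median change of the list was -2.93 and 1.96 in the first 2 of these comparisons. The median r of the list with Mitf was 0.94 over the arrays and 0.88 within weeks.

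The retinal pigment epithelium also uses Mitf and most of those pigment genes, and its own markers moved over the same weeks. Of 11 such genes, 10 were called lower in week 2 against week 1, led by Ttr (-4.84), Rpe65, the isomerase of the visual cycle (-4.64), Rlbp1 (-4.36) and Rgr (-4.36). The remaining gene of the 11 went the other way in week 2 against week 1, higher at the adjusted p and without overlap. In week 3 against week 2, 9 were called higher and 1 was lower at the adjusted p alone, and in week 8 against week 6, 7 were called lower. The mean log2 signal of the list ranged over arrays between 7.62 and 9.48 in week 1, 5.18 and 6.73 in week 2, 6.91 and 7.79 in week 3, 7.47 and 8.52 in week 6, and 5.71 and 7.86 in week 8. The median r of Mitf with this list was 0.84 over the arrays and 0.50 within weeks, and that of Ednrb was 0.89 and 0.59. The 7 measured photoreceptor genes were called lower in week 2 against week 1 as well, with a mean of 5.86 ± 0.76 in week 2, against 9.66 ± 1.27 in week 1 (SD, n = 6 each), and Mitf had a median r of 0.59 with them over the arrays and -0.01 within weeks. The part of either cell source in the Mitf and Ednrb signals was not tested.

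Markers of the remaining cell types were followed beside the genes they share. All 12 surface epithelium genes were called higher in week 2 against week 1, the comparison in which Kit rose, with a list mean of 10.53 ± 0.29 in week 2, against 8.44 ± 0.74 in week 1 (SD, n = 6 each). In week 8 the array with the lowest Kit signal, replicate 2, also had the lowest mean of this list, 9.84. The mean of the 10 endothelium genes was 8.49 ± 0.55 in week 2, 9.27 ± 0.43 at week 3 and 7.84 ± 0.53 by week 6 (each a mean ± SD of 6 arrays), and 8 of them were called lower in week 6 against week 3, the step in which Edn3 fell. The Schwann cell list had week means of 6.85, 6.60, 7.11, 6.73 and 6.66. Of its 10 genes, 2 rose and 4 fell in week 2 against week 1 at the adjusted p alone, where 38.1% of all genes rose and 33.9% fell. In week 3 against week 2, 6 rose and 0 fell, where 28.9% of all genes rose and 26.2% fell. In week 6 against week 3, 0 rose and 5 fell, where 30.9% of all genes rose and 25.1% fell. These were the steps in which Sox10 fell, rose and fell. The mast cell list had week means between 5.58 and 5.85 and the muscle progenitor list between 5.51 and 6.01. The list of Mueller glia and astrocytes, retinal and neural glia, had means of 8.17, 7.18, 7.97, 7.30 and 7.32 in the 5 weeks. The scleral matrix list, which stands for the fibroblasts of the tissue, had means of 11.12, 9.90, 10.98, 10.47 and 10.42. At the adjusted p alone, all 8 of its genes were lower in week 2 against week 1, where 33.9% of all genes were. Of the 8, 5 were called (median log2 fold change -1.19). All 8 were higher in week 3 against week 2, where 28.9% of all genes were, and 5 were called (1.15). These were the steps in which Mitf, Sox10 and Ednrb fell and then rose. In week 6 against week 3, 6 of the 8 were lower at the adjusted p alone, where 25.1% of all genes were. Of these, 1 was called (median of the list -0.80), in the step in which Edn3 and Sox10 fell. The median r of this list was 0.52 with Mitf, 0.50 with Ednrb and 0.60 with Edn3 over the arrays, and 0.54, 0.56 and 0.68 within weeks. The part of these cell types in the changes of the 8 genes was not tested.

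**Figure D5:**
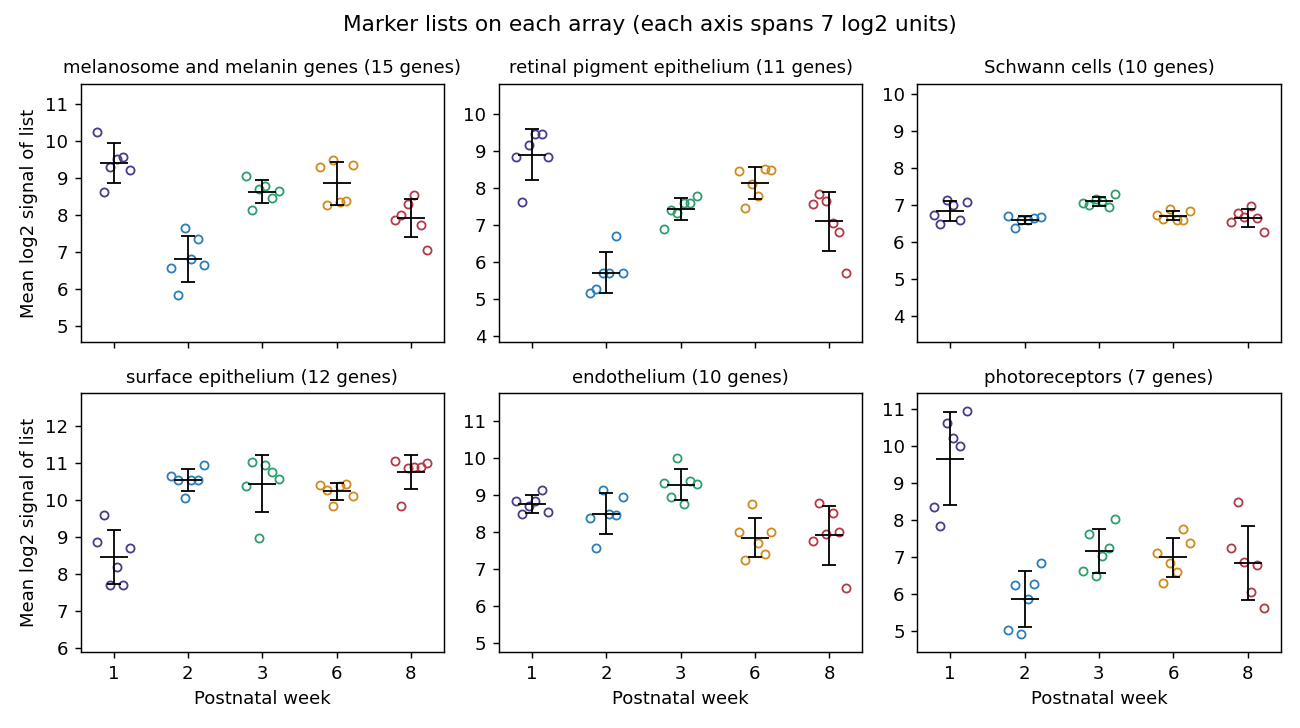
Mean log2 signal of 6 marker lists on each array by postnatal week, with 1 open circle per mouse, the week mean as a bar and the SD as error bars (n = 6 per week). The melanosome and retinal pigment epithelium lists were lowest in week 2 (means 6.81 and 5.72), the surface epithelium list was lowest in week 1 (8.44), and the Schwann cell list was highest in week 3 (7.11) and lowest in week 2 (6.60).

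Of 23 further genes of these pathways, 21 were measured: other endothelins and their converting enzymes, the melanocortin ligand and its modifiers, factors that bind or resemble Mitf, and neural crest factors. In week 2 against week 1, Edn1, the vascular endothelin, was called higher (1.14, SE 0.12, limma adjusted p = 7.43e-09) and Zeb2, a repressor active in the neural crest, was called lower (-1.50, SE 0.23, limma adjusted p = 2.85e-06). No gene of this list was called by limma in week 3 against week 2. At the adjusted p alone 10 rose and 3 fell, where 28.9% of all genes rose and 26.2% fell. Among those that rose was Ece1, which cuts endothelins to their active form (0.70). In week 6 against week 3, Ece1 was called lower (-1.41, SE 0.13, limma adjusted p = 4.59e-10) together with Edn1 (-1.08, SE 0.12, limma adjusted p = 1.55e-08), the step in which Edn3 fell by 1.47. Ednra and Asip were not analysed here. Tfec, a close relative of Mitf, fell in week 2 against week 1 (-0.86), rose in week 6 against week 3 (0.97) and fell in week 8 against week 6 (-0.60). Its relatives Tfeb and Tfe3 fell in week 6 against week 3 (-0.77 and -0.79).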

How the data were processed

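The authors made the deposited log2 signals from Mouse Gene 1.0 ST arrays, 1 value per transcript cluster and array. For these arrays, robust multiarray averaging and a batch removal on scan date are described in the paper, whereas GCRMA and Partek 6.5 stand in the submitters' processing notes. Which of these the values carry, and each array's scan date, are not given in the sources used here. Week 2 replicate 4 equalled the week 2 mean to within rounding in all genes followed here (Mitf 6.474, Ednrb 6.397). Whether the batch removal left this pattern was not tested. Without scan dates, age and batch could not be set against each other. The platform annotation gives 1 symbol to 21789 of 35556 transcript clusters, several to 1621 and none to 12146. The brightest cluster stood for a gene.

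Values were used unscaled and fitted in limma 3.58.1 (R 4.3.3), with a mean per week over 30 arrays, and each comparison was adjusted over 35556 clusters by Benjamini and Hochberg. Genes were called at 2-fold or more and adjusted p of at most 0.05. Named genes were the 8 members, up to 4 called genes per list and comparison by size, and the 3 nearest per member. Genes of the pathway list named beyond that (Ece1 in week 3, Tfec, Tfeb and Tfe3) were chosen after their values were seen. Members, lists and this rule were chosen with earlier results of these data known. The fit was tested on simulated data before use. Other normalizations, filters, weights, covariates, a replicate block and leaving out each array were tried. Promoters were RefSeq windows of 250 bases. The number of arrays limits the precision.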

Additional observations from a re-analysis of the deposited data

Results flagged for a closer look

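Each of the 40 groups of 6 arrays (8 genes in 5 weeks) was examined for an array standing far from the others, by Dixon's criterion of 0.625 for the gap over the range. Chance marks about 1 in 20 groups, and 4 groups were marked. Kit on week 8 replicate 2 was 8.33, with the nearest array at 9.33 and the highest at 9.73. Ednrb on week 1 replicate 2 was 8.32, with the nearest array at 9.28. The same array had the highest surface epithelium mean of week 1, 9.58, and the lowest means of that week for the melanosome list, 8.61, and the retinal pigment epithelium list, 7.62. Ednrb on week 8 replicate 6 was 5.96, with the nearest array at 7.52, and the same array was the lowest of its week for Mitf (6.26), Edn3 (6.17), Kitl (6.94) and Pax3 (5.36). Mc1r on week 2 replicate 2 was 6.65, with the nearest array at 6.28, and Mitf (5.24) and Ednrb (5.28) were the lowest of week 2 on that array.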

How the results depend on the processing

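Of 360 values of the 8 genes under other settings, 318 kept their direction and their side of the adjusted p of 0.05. Of the rest, 20 no longer passed it, 17 newly passed it and 5 turned direction. The 2-fold limit did not enter these counts, so a call could be lost or gained among values counted as kept. Without a fold limit, 7 genes were called in week 2 against week 1 and 5 in week 6 against week 3. The counts were 2 in week 8 against week 6 and 6 in week 8 against week 1. In week 2 against week 1, week 6 against week 3 and week 8 against week 1, most of all genes passed too. In week 8 against week 6 most did not, but the share that passed was above that of the 8 genes. With the array spread covariate the counts were 0 in week 3 against week 2 and 2 in week 6 against week 3. Calls over all transcript clusters in these comparisons then went from 1560 to 350 and from 2696 to 3421. Kit was then also called in week 2 against week 1 (1.12), and Mitf was no longer called in week 8 against week 1 (-0.98). Array quality weights left 0 in week 8 against week 6 (Ednrb -0.84). Leaving out 1 array at a time gave 0 to 2 there, with 0 without week 6 replicate 3 or week 8 replicate 6 and 2 without week 8 replicate 4. It gave 2 to 3 in week 8 against week 1, 7 to 8 for the differences among weeks, and in the other 3 successive comparisons the counts stayed at 2, 3 and 1. The turns of direction all concerned values that did not pass. Pax3 in week 6 against week 3, 0.013 as reported, was -0.074 with median centring, -0.075 with quantile normalization, -0.079 with the spread covariate and between -0.049 and 0.088 leaving out arrays. Kitl was -0.11 in week 3 against week 2 and 0.14 in week 6 against week 3 with the spread covariate, and Kit in week 8 against week 6 was between -0.033 and 0.28 leaving out arrays. For 2 comparisons of week 8 with week 2, leaving out arrays was added after seeing the data: Edn3 was between -0.085 and 0.45, and Mitf between 0.85 and 1.36, under the 2-fold limit without week 2 replicate 2 or week 8 replicate 4. The causes were not tested.

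Replicate numbers did not pair the arrays: deviations of same-numbered arrays had a median r of 0.01 (60 pairs, -0.41 to 0.46). With the replicate number as a block, 2, 3, 1, 1 and 3 genes were called in the 4 successive comparisons and in week 8 against week 1, as without it, and 7 differed among weeks. Mitf in week 8 against week 6 (-0.80, limma adjusted p = 0.0351) and Kit in week 3 against week 2 (-0.45, limma adjusted p = 0.0457) then passed the threshold.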
